A study of Mus musculus with 30 samples.

Results

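The 10 genes described here encode enzymes that break down leucine, isoleucine and valine, the branched-chain amino acids, and the kinase and phosphatase that set the activity of the committed step. They are Bcat2, Bckdha, Bckdhb, Dbt, Bckdk, Ppm1k, Ivd, Mccc1, Mccc2 and Hibadh. They were taken by name from a deposited table of 13575 genes, as a set picked with earlier results of these data known, and all 10 were found and passed the filter on low values. RNA had been sequenced from mouse hearts with trimmed atria, from animals of 2 months killed at ZT10, 10 hours into the light phase. The 6 libraries are 3 labelled RevFloxed_Control, here control, and 3 labelled CM-RevDKO, in which both REV-ERB nuclear receptors, repressors of the circadian clock, are deleted in cardiomyocytes. The floxed alleles of Rev-erba and Rev-erbb are shared by both groups as far as the labels tell. For the ChIP hearts of the same series, the labels write the genotype as aMHC-Cre, present or absent, with Rev-erba/b ff/ff; the alpha myosin heavy chain promoter drives Cre in cardiomyocytes only, so other heart cells keep both receptors. The sources used here do not give whether the RNA controls lacked Cre, the sex of the RNA animals or any pooling; if the controls lack it, Cre expression and receptor loss cannot be told apart. Nothing in the labels says that replicates came from separate animals, so the p-values reflect no more than the spread among these libraries, which may be technical.

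Branched-chain amino acids are broken down inside mitochondria, and muscle and heart carry out much of the initial step. The aminotransferase BCAT2 removes the amino group and leaves a branched-chain keto acid. The branched-chain keto acid dehydrogenase complex (BCKDH) then removes carbon dioxide irreversibly; it is built from an E1 part (alpha and beta subunits, encoded by Bckdha and Bckdhb), an E2 core (Dbt) and an E3 subunit (Dld) that it shares with pyruvate dehydrogenase. The kinase BCKDK phosphorylates E1 alpha and switches the complex off, and the phosphatase PPM1K switches it on. Separate branches then handle the products of leucine (Ivd, Mccc1 and Mccc2), valine (Hibadh) and isoleucine, and end in acetyl-CoA, ketone bodies or propionyl-CoA.

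Values are taken as FPKM, that is, fragment counts divided by transcript length and by the size of the library. The log2 fold changes are differences in mean log2(FPKM + 1), CM-RevDKO minus control, from limma fitted over 13256 genes. Its p-values were adjusted over all of them, with a threshold of 0.05. The libraries summed to 678722 to 712158, with 36.9% to 41.0% in mitochondrially encoded transcripts, and sequencing depth is unknown. The targeted gene Nr1d1 stood at 15.01 to 23.9 FPKM with the control label and at 47.4 to 55.6 FPKM with the CM-RevDKO label, against the direction of the label (adjusted p = 0.0124), and Nr1d2 stood at 30.6 to 40.3 and 26.6 to 28.8 FPKM (adjusted p = 0.175). A gene-level value also counts exons outside a deleted part, and which exons were deleted is not given in the labels, so these values do not check the labels, and every direction below rests on the labels. All 9 ventricular cardiomyocyte markers were measured, and they summed to 34679 to 37212 FPKM in the libraries labelled control and 36729 to 38978 FPKM in the others. Within that list 3 genes (Myl2, Tnnt2 and Mb) were higher and 4 (Myh6, Tnni3, Atp2a2 and Pln) lower without overlap, and its median log2 difference from the control mean was -0.26, -0.18 and 0.18 in CM-RevDKO replicates 1, 2 and 3. In none of 9 marker lists, of cardiomyocytes, atrium and 7 other cell types, did a gene pass the test. Libraries labelled CM-RevDKO were not alike: mt-Atp8 stood at 18989 and 19303 FPKM in replicates 1 and 2 and at 8032 to 9769 FPKM in the remaining 4 libraries. In whole hearts, fewer cells of a type and less RNA per cell cannot be told apart.

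The BCKDH core was lower in the libraries labelled CM-RevDKO in 2 of its 3 dedicated subunits. Bckdhb fell by 29.3% and Dbt by 36.6% of the control mean, whereas Bckdha did not pass the test. The other 7 genes, Bcat2, Bckdk, Ppm1k, Ivd, Mccc1, Mccc2 and Hibadh, did not pass it either. None passed the test on the higher side, and 4 of the 10 had an unadjusted p under 0.05, as had 2206 of all 13256 genes. Across all genes tested, 332 passed (2.5%), 165 of them lower (1.24%) and 167 higher (1.26%). Scaled without the mitochondrially encoded genes, 212 were lower and 118 higher. The 10 members had a median log2 fold change of -0.15, against 0.02 over all genes, and 9 of 10 had a negative value, against 46.3% of all genes. Groups did not overlap for 4 members on the lower side (10.5% of all genes) and 1 on the higher side (12.6% of all genes).

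**Figure D1:**
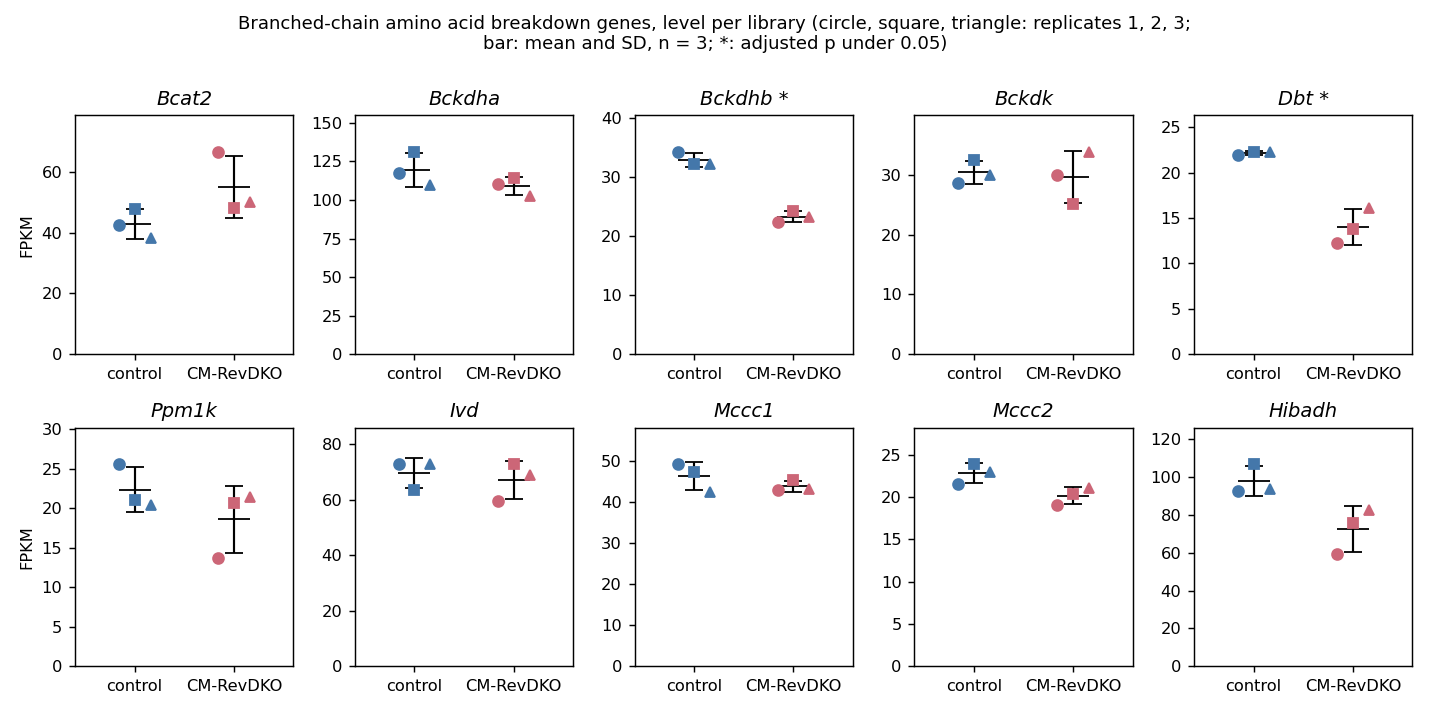
FPKM of each of the 10 genes in the 3 libraries labelled control (blue) and the 3 labelled CM-RevDKO (red); circles, squares and triangles are replicates 1, 2 and 3, bars are the mean and SD (n = 3), each axis starts at 0, and an asterisk marks an adjusted p under 0.05. The values of Bckdhb and Dbt lie apart between groups, at 22.4 to 24.3 against 32.3 to 34.3 FPKM and at 12.2 to 16.1 against 21.9 to 22.3 FPKM.

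In the libraries labelled control the 10 genes spanned 22.1 to 119.5 FPKM in their means, and by their mean over all 6 libraries they lay from the 79.5th percentile (Dbt) to the 96.2nd (Bckdha) of the genes tested. By mean level in these controls the order was Bckdha, Hibadh, Ivd, Mccc1, Bcat2, Bckdhb, Bckdk, Mccc2, Ppm1k and Dbt. The control ranges overlapped between the neighbours Mccc1 and Bcat2, Bckdhb and Bckdk, Mccc2 and Ppm1k, and Ppm1k and Dbt, and were apart between the other neighbours. In the libraries labelled CM-RevDKO the order differed in 2 places: Bcat2 stood above Mccc1, and Bckdk above Bckdhb.

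Bckdhb encodes the beta subunit of E1, the decarboxylating part of the complex (ENSMUSG00000032263, chromosome 9, 83925111 to 84124240, mm10). Its level was 34.3, 32.3 and 32.3 FPKM in control replicates 1, 2 and 3 and 22.4, 24.3 and 23.2 FPKM in CM-RevDKO replicates 1, 2 and 3. All 3 libraries labelled CM-RevDKO were lower than every control, and they lay within 2 FPKM of each other. The mean was 33.0 ± 1.17 FPKM in the controls and 23.3 ± 0.969 FPKM (SD, n = 3), which on the log2 scale is -0.48 with an SE of 0.08 (adjusted p = 0.0333). The long non-coding RNA gene Gm46124 overlaps Bckdhb over 21783 bases and is not in the table. Dbt encodes the E2 core, which carries the lipoyl arm and transfers the acyl group to coenzyme A (ENSMUSG00000000340, chromosome 3, 116513070 to 116549981). Its level was 21.9, 22.3 and 22.3 FPKM in control replicates 1, 2 and 3 and 12.2, 13.7 and 16.1 FPKM in CM-RevDKO replicates 1, 2 and 3. The controls were nearly level and the libraries labelled CM-RevDKO, all lower, spread more, with replicate 1 lowest. The mean was 22.1 ± 0.222 FPKM in the controls and 14.0 ± 1.96 FPKM (SD, n = 3), or -0.63 on the log2 scale with an SE of 0.11 (adjusted p = 0.0364). The pseudogene Gm4596, which lies within Dbt, stood at 0.129 to 2.85 FPKM, and without strand or read placement the share of reads it takes from Dbt is uncertain. Both calls lie close to the threshold: that of Bckdhb was lost whichever library was dropped (adjusted p between 0.0659 and 0.125), and that of Dbt whichever was dropped other than CM-RevDKO replicate 3 (adjusted p between 0.0744 and 0.124). Both also ended without the intensity trend in limma (adjusted p = 0.0606 for Bckdhb and 0.0575 for Dbt) and with the atrial (0.360 and 0.436) or adipocyte (0.194 and 0.216) markers as a covariate, while the log2 fold change stayed between -0.55 and -0.45 for Bckdhb and between -0.73 and -0.44 for Dbt under all 17 alternatives.

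Bckdha, the alpha subunit that pairs with Bckdhb in E1 and carries the phosphorylated serines (ENSMUSG00000060376, chromosome 7, 25629852 to 25658782), was the most abundant of the 10. It stood at 117.4, 131.3 and 109.7 FPKM in control replicates 1, 2 and 3 and at 110.1, 114.0 and 102.4 FPKM in CM-RevDKO replicates 1, 2 and 3. The groups overlapped, and the log2 fold change of -0.13 (SE 0.10) did not pass the test (adjusted p = 0.555), with a 95% interval of -0.36 to 0.10. Dld, the shared E3 subunit, stood at 172.3 to 191.9 FPKM across the controls and at 197.6 to 204.1 FPKM in those labelled CM-RevDKO (log2 0.12, SE 0.08, adjusted p = 0.529). Its groups did not overlap, on the higher side, as was so for 12.6% of all genes. The log2 fold change of Dld depended on scaling: it was 0.0 with quantile normalization and 0.05 when scaled without mitochondrially encoded genes.

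The RefSeq promoter table of GRCm38.p6, which is mm10, holds 11 windows for 9 of the 10 genes, each from 250 bases before to 50 bases after an annotated start. They were searched on both strands for the hexamer AGGTCA that nuclear receptors of the REV-ERB and ROR families bind, for TAGGTCA, its form with a T before it that many ROR elements have, for TTANGTAA, the D-box that E4BP4 binds, and for the E-box CACGTG; every TAGGTCA also counts as an AGGTCA. The hexamer was in 3 of the 11 windows and in 16.3% of all 32851 windows. The 3 were those of Ppm1k and Hibadh and the window of Bckdhb that is printed in part below. Another annotated window of Bckdhb, inside the gene at chr9:83948531-83948830, held no match to it. TAGGTCA and TTANGTAA were in none of the 11, and in 2.61% and 2.32% of all windows, and CACGTG was in that of Mccc2 alone and in 7.15% of all. The part upstream of the gene is shown for Bckdhb, the called gene with a window, for Bckdha, its E1 partner, and for Ppm1k, the phosphatase, from base -250 to base -71 of the start, 5′ to 3′ on the strand of the gene, with the hexamer in capitals. They lie at chr9:83924887-83925066 (plus strand), chr7:25658832-25659011 (minus strand) and chr6:57535558-57535737 (minus strand).
Bckdhb: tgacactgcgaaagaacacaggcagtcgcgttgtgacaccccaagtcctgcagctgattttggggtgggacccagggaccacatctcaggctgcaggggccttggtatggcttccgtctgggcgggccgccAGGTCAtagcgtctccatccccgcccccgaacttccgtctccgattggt
Bckdha: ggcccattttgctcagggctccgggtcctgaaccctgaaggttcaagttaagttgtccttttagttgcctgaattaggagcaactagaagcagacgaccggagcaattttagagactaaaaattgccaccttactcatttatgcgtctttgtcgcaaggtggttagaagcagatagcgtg
Ppm1k: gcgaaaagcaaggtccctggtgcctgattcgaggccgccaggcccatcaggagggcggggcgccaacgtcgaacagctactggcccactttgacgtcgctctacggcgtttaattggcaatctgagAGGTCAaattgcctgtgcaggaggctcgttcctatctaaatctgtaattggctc
The hexamer starts 119 bases before the start of Bckdhb and 124 bases before that of Ppm1k, on the strand of the gene in both, and the stretch of Bckdha has none. In Hibadh it starts 19 bases after the start. A match describes the letters in these windows and shows no binding.

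Within a library the members can be set against each other, and a ratio of FPKM values needs no scaling between libraries. The ratios below are of FPKM. Their log2 differences and tests used log2(FPKM + 1), which does depend on scaling. With a pseudocount of 0.1 the log2 difference was 0.37 for Bckdha over Bckdhb and -0.35 for Dbt over Bckdha and Bckdhb. Of 5 such ratios, 3 did not overlap between groups; the exact permutation test, two-sided, cannot give a p below 0.1 with 3 against 3, and gave p = 0.1 for each of these 3 (adjusted p = 0.167 over the 5 ratios). Bckdha over Bckdhb, E1 alpha over E1 beta, was 3.42, 4.07 and 3.39 in control replicates 1, 2 and 3 and 4.92, 4.69 and 4.41 in CM-RevDKO replicates 1, 2 and 3, so that alpha was further in excess in all 3 libraries labelled CM-RevDKO. On the log2 scale the mean difference was 0.35. Dbt over the geometric mean of Bckdha and Bckdhb, E2 over E1, was 0.345, 0.342 and 0.374 in the controls and 0.246, 0.261 and 0.331 in CM-RevDKO replicates 1, 2 and 3, a log2 difference of -0.32. Replicate 3 lay close to the controls in this ratio. Bcat2 over Bckdha, the aminotransferase over the next enzyme, was 0.361, 0.364 and 0.348 in the controls and 0.605, 0.422 and 0.490 in CM-RevDKO replicates 1, 2 and 3. It was higher in all 3, by 0.48 on the log2 scale. The 3 ratios without overlap all contain Bckdha, and each contains Bckdhb, Dbt or Bcat2, whose own levels did not overlap between groups. They are therefore not 3 independent results, and the share of other gene pairs without overlap was not tested.

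**Figure D2:**
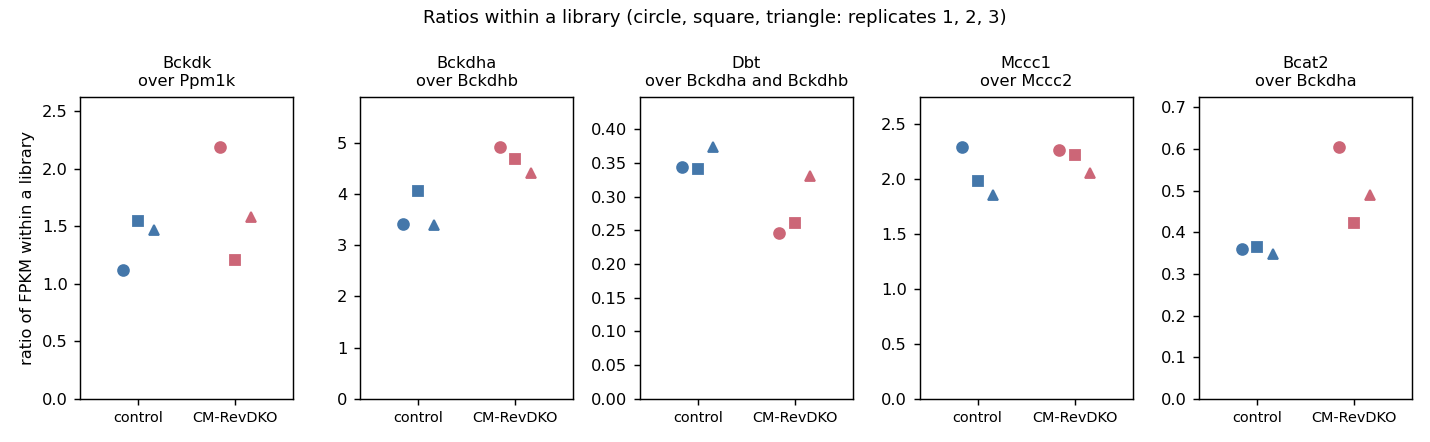
Ratio of FPKM values within each library for 5 pairs, with control in blue and CM-RevDKO in red, circles, squares and triangles for replicates 1, 2 and 3, and axes from 0; the third panel divides Dbt by the geometric mean of Bckdha and Bckdhb. Groups lie apart for Bckdha over Bckdhb, Dbt over E1 and Bcat2 over Bckdha, and overlap for Bckdk over Ppm1k and Mccc1 over Mccc2.

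Bckdk, the kinase that switches the complex off (ENSMUSG00000030802, chromosome 7, 127904073 to 127909664), had 28.7, 32.6 and 30.0 FPKM in control replicates 1, 2 and 3 and at 30.0, 25.0 and 33.9 FPKM in CM-RevDKO replicates 1, 2 and 3. The groups overlapped in both directions, and the log2 fold change was -0.04 (SE 0.12, adjusted p = 0.904), with a 95% interval of -0.34 to 0.25. Ppm1k, the phosphatase that switches it on (ENSMUSG00000037826, chromosome 6, 57506502 to 57535552), had 25.6, 21.0 and 20.4 FPKM in the controls and 13.7, 20.7 and 21.4 FPKM in CM-RevDKO replicates 1, 2 and 3. A low value in CM-RevDKO replicate 1 sets its log2 fold change of -0.27 (SE 0.18, adjusted p = 0.502); without that library it was -0.07 (adjusted p = 0.857). The ratio of kinase to phosphatase was 1.12, 1.55 and 1.47 in the controls and 2.19, 1.21 and 1.58 in the libraries labelled CM-RevDKO. These overlap (log2 difference 0.22, exact permutation p = 0.4, adjusted p = 0.4 over the 5 ratios), and the difference was 0.02 without CM-RevDKO replicate 1.

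Bcat2, the mitochondrial aminotransferase of the entry step (ENSMUSG00000030826, chromosome 7, 45568967 to 45589710), was the member with a positive log2 fold change. It stood at 42.3, 47.9 and 38.2 FPKM in control replicates 1, 2 and 3 and at 66.6, 48.1 and 50.1 FPKM in CM-RevDKO replicates 1, 2 and 3. The groups did not overlap, but CM-RevDKO replicate 2 exceeded control replicate 2 only narrowly, and the value of 0.34 (SE 0.15) did not pass the test (adjusted p = 0.300). Without CM-RevDKO replicate 1 the log2 fold change was 0.20. Fat tissue is also rich in Bcat2, and adipocyte markers differed between these libraries: 6 of 8 were measured, Lep and Adrb3 being absent from the table, and none was at 0. Their summed level was 697 to 822 FPKM across the controls and 592 to 1103 FPKM in those labelled CM-RevDKO. Fabp4 made up most of that sum, at 687.7 to 807.1 and 580.8 to 1020 FPKM (log2 0.04, adjusted p = 0.953 by limma). The sum therefore says little about the other markers. The median log2 difference of the 6 markers from the control mean was 1.71, 1.35 and -0.06 in CM-RevDKO replicates 1, 2 and 3. With the adipocyte markers as a covariate the log2 fold change of Bcat2 was 0.18 (adjusted p = 0.824), and with the atrial markers 0.12 (adjusted p = 0.910). The part of fat or atrial tissue in the level of Bcat2 was not tested. Bcat1, the cytosolic aminotransferase, is not in the table.

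In the leucine branch no member passed the test. Ivd, isovaleryl-CoA dehydrogenase (ENSMUSG00000027332, chromosome 2, 118861959 to 118882909), stood at 63.4 to 72.7 FPKM across the controls and at 59.6 to 72.8 FPKM in those labelled CM-RevDKO (log2 -0.05, SE 0.11, adjusted p = 0.856). Mccc1, the biotin-carrying subunit of methylcrotonyl-CoA carboxylase (ENSMUSG00000027709, chromosome 3, 35956292 to 36000694), stood at 42.5 to 49.2 and 42.9 to 45.3 FPKM (log2 -0.08, SE 0.09, adjusted p = 0.727). The groups overlapped for both genes. Mccc2, the other subunit of that enzyme (ENSMUSG00000021646, chromosome 13, 99948532 to 100015639), had 21.5, 23.9 and 22.9 FPKM in the controls and 19.0, 20.4 and 21.0 FPKM in CM-RevDKO replicates 1, 2 and 3. All 3 were lower than every control, by a small margin, and the log2 fold change of -0.17 (SE 0.09) did not pass (adjusted p = 0.403). The ratio of Mccc1 to Mccc2 overlapped between groups, at 1.85 to 2.29 in the controls and 2.05 to 2.26 in the others (log2 difference 0.09, exact permutation p = 0.4).

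Hibadh, 3-hydroxyisobutyrate dehydrogenase of the valine branch (ENSMUSG00000029776, chromosome 6, 52546230 to 52640300), consumes 3-hydroxyisobutyrate, a valine intermediate that muscle can release. It stood at 92.4, 106.7 and 93.5 FPKM in control replicates 1, 2 and 3 and at 59.2, 75.8 and 82.4 FPKM in CM-RevDKO replicates 1, 2 and 3. All 3 libraries labelled CM-RevDKO were lower, replicate 1 most. The log2 fold change of -0.43 (SE 0.14) did not pass the test (adjusted p = 0.168; 95% interval -0.75 to -0.12 before adjustment over genes). With 1 library dropped at a time it ranged from -0.53 to -0.30, and it was -0.10 with the atrial and -0.21 with the adipocyte markers as a covariate (adjusted p = 0.880 and 0.691).

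CM-RevDKO replicate 1 was the library farthest from the control mean for several members. On the log2 scale Dbt lay at -0.81, -0.65 and -0.44 in CM-RevDKO replicates 1, 2 and 3, Hibadh at -0.71, -0.36 and -0.24, and Bckdhb at -0.54, -0.42 and -0.49. The median over the 10 members was -0.23, -0.12 and -0.10. Bckdhb was thus about equally low in all 3 libraries, and Dbt and Hibadh were lowest in replicate 1. Atrial markers were highest in the same library: 6 of 7 were in the table (Nr2f1 was not), Bmp10 was at 0 in 5 of the 6 libraries, and their summed level was 85.0 to 140 FPKM in the libraries labelled control and 708, 192 and 229 FPKM in CM-RevDKO replicates 1, 2 and 3. Fitted without control replicate 2 and CM-RevDKO replicate 1, Bckdhb had a log2 fold change of -0.47 (adjusted p = 0.163) and Dbt one of -0.54 (adjusted p = 0.167). With CM-RevDKO replicate 3 alone against the controls, an alternative chosen after seeing the data in which that library is assumed to vary like the controls, they had -0.49 (adjusted p = 0.289) and -0.44 (adjusted p = 0.345). Each marker covariate was the mean log2(FPKM + 1) of the listed markers past the filter, which leaves out Bmp10, and not the summed level. Of the 5 atrial markers in it Myl7, Myl4 and Sln did not overlap between groups, and Stard10 and Dkk3 did. Fits with the atrial markers as a covariate therefore cannot fully tell these markers apart from the group. The part of atrial or adipose tissue in the values of the other members was not tested.

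**Figure D3:**
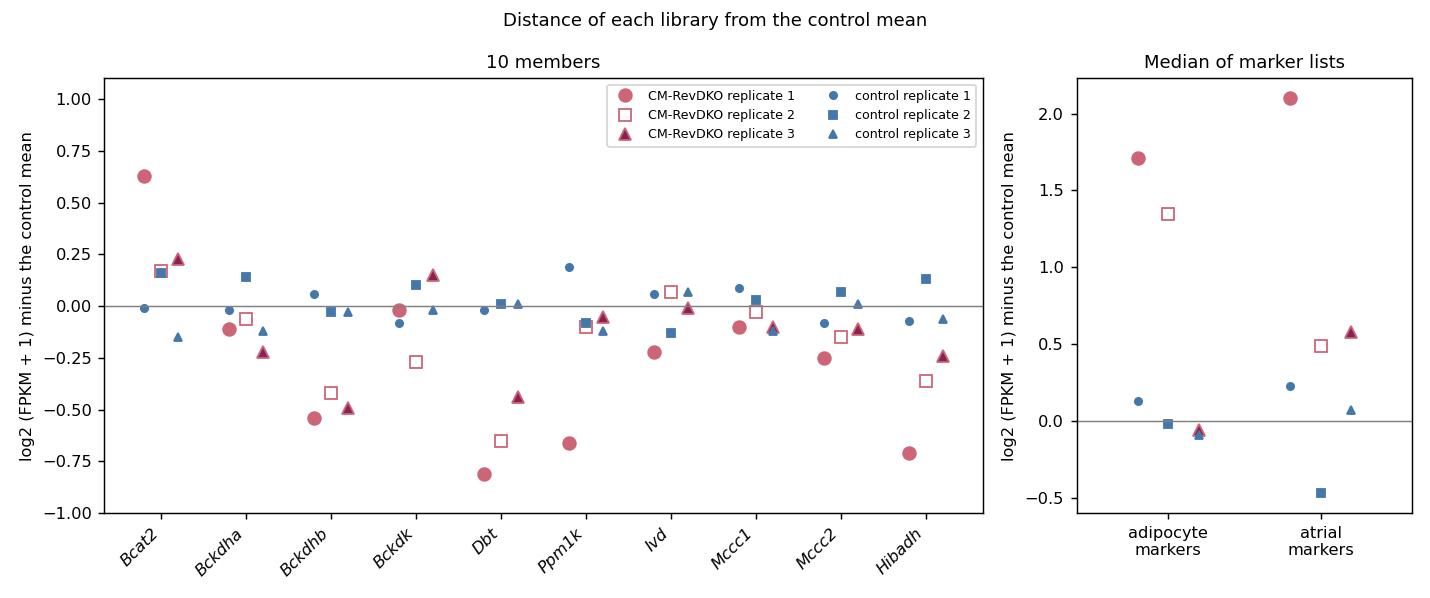
Left, log2(FPKM + 1) of each member in each library minus the control mean; right, the median of the same difference over the 6 measured adipocyte markers and the 6 atrial markers (control in blue, CM-RevDKO in red). CM-RevDKO replicate 1 is the lowest for Dbt (-0.81), Ppm1k (-0.66) and Hibadh (-0.71) and the highest for Bcat2 (0.63) and for both marker lists (1.71 and 2.10).

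The rest of the pathway gave no call. Of 25 further genes of branched-chain amino acid breakdown, 24 were measured and none passed limma's test, 2 of them having an unadjusted p under 0.05; Aldh6a1 and Etfb, whose intervals lay below 0, are those 2. Their median log2 fold change was 0.05, with values from -0.27 to 0.23, and 11 were negative. In the leucine branch, Auh, the hydratase after methylcrotonyl-CoA carboxylase, stood at 47.8 and 42.1 FPKM (group means, control and CM-RevDKO; adjusted p = 0.365). In the isoleucine branch all 4 genes had negative values, as had 46.3% of all genes tested. Echs1, a hydratase shared with fatty acid oxidation, stood at 176.4 and 157.7 FPKM (adjusted p = 0.425) and Acat1, the thiolase, at 147.3 and 138.3 FPKM (adjusted p = 0.692). In the valine branch, the neighbours of Hibadh differed from each other in sign: Hibch, which acts just before it, stood at 34.8 and 36.5 FPKM (adjusted p = 0.731), and Aldh6a1, which acts just after it, at 69.4 and 57.2 FPKM (log2 -0.27, adjusted p = 0.238).

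Propionyl-CoA, the product of valine and isoleucine, is handled by Pccb, a propionyl-CoA carboxylase subunit, and by the epimerase Mcee. Pccb stood at 49.7 and 59.3 FPKM (log2 0.23, adjusted p = 0.495). Its log2 fold change was 0.06 without CM-RevDKO replicate 1, the highest at 73.9 FPKM. Mcee stood at 57.8 and 64.6 FPKM (adjusted p = 0.378). Of the 6 genes of these steps 5 had positive values, as had 7112 of all 13256 genes tested. The acyl-CoA dehydrogenases pass electrons to the electron transfer flavoprotein, and its subunits differed in sign. Etfa stood at 394.4 and 462.9 FPKM (adjusted p = 0.333) and Etfb at 583.4 and 493.9 FPKM (adjusted p = 0.217). Both were without overlap between groups, as were 12.6% of all genes on the higher side and 10.5% on the lower. Over the 17 alternatives the log2 fold change ranged from 0.06 to 0.31 for Etfa and from -0.34 to -0.2 for Etfb. Of 5 genes that supply or attach lipoate or biotin, none passed. Lias, which makes lipoate, stood at 15.9 and 14.0 FPKM and Lipt1, a lipoyl transferase, at 3.27 and 3.64 FPKM (adjusted p = 0.809 and 0.913). Of 7 carriers of these amino acids 5 were measured and none passed. Slc3a2, the heavy chain of the plasma membrane carrier, stood at 9.13 and 9.28 FPKM (adjusted p = 0.967), and Slc25a44, the mitochondrial carrier, at 5.14 and 5.94 FPKM (adjusted p = 0.411). As the plot of the pathway by step shows, the calls lie in Bckdhb and Dbt, and the 95% intervals of most other genes include 0.

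**Figure D4:**
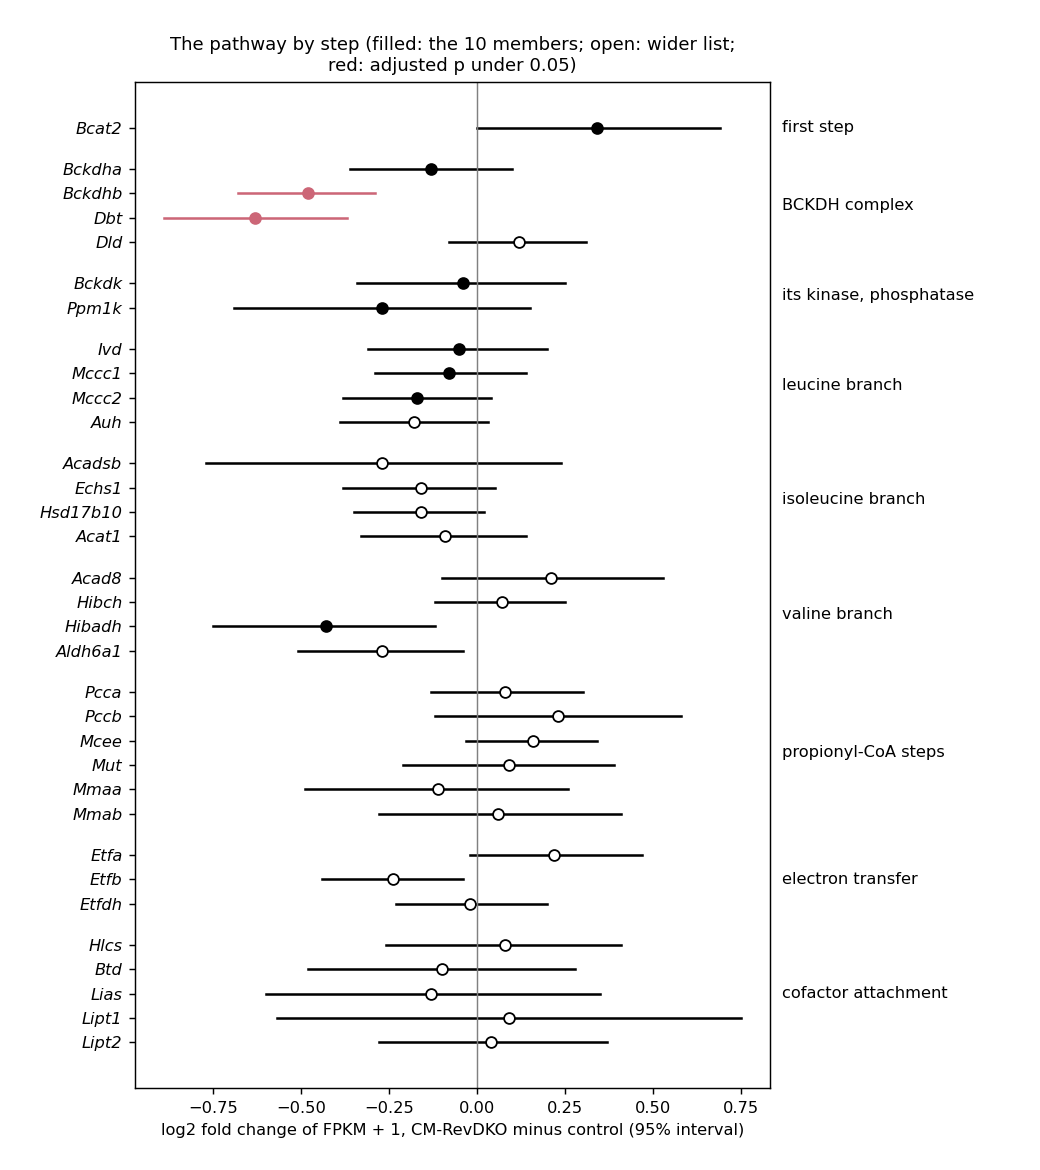
Log2 fold change of FPKM + 1 (CM-RevDKO minus control) with its 95% interval from limma for the 10 members (filled) and further pathway genes (open), grouped by step; red marks an adjusted p under 0.05. Bckdhb (-0.48) and Dbt (-0.63) are the 2 called genes shown, and their complex partners Bckdha (-0.13) and Dld (0.12) are not called.

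Of 4 genes that are known to activate branched-chain amino acid breakdown genes in muscle or heart, or the mitochondrial programme around them, none passed the test. All 4 were without overlap on the lower side, as were 10.5% of all genes, and 3 had an unadjusted p under 0.05, as had 2206 of all 13256 genes. Klf15, a Krüppel-like factor that activates Bcat2 and BCKDH genes, stood at 21.5, 21.7 and 22.4 FPKM in control replicates 1, 2 and 3 and at 14.2, 18.1 and 18.1 FPKM in CM-RevDKO replicates 1, 2 and 3 (log2 -0.37, SE 0.11, adjusted p = 0.162). Ppargc1a, which encodes the coactivator PGC-1α, stood at 12.9 to 16.01 and 7.73 to 11.2 FPKM (log2 -0.53, SE 0.15, adjusted p = 0.134). Ppargc1b, its relative, stood at 8.32 to 9.75 and 6.55 to 7.34 FPKM (log2 -0.36, adjusted p = 0.128), and Ppara, the fatty acid receptor, at 9.18 to 11.5 and 8.40 to 9.06 FPKM (log2 -0.24, adjusted p = 0.328). These last 2 were named after their values were seen. With the atrial markers as a covariate the log2 fold change of Klf15 was -0.15 (adjusted p = 0.817) and that of Ppargc1a -0.31 (adjusted p = 0.734), and with the adipocyte markers that of Klf15 was -0.23 (adjusted p = 0.640). With the atrial markers the log2 fold changes of Ppargc1b and Ppara were -0.35 and -0.3, against -0.36 and -0.24 without a covariate. With the adipocyte markers the log2 fold changes of Ppargc1a, Ppargc1b and Ppara were -0.39, -0.28 and -0.2. None of the 4 genes passed the test in either fit. Among the members, 9 of the 10, with Bckdhb and Dbt among them, had a negative log2 fold change, as had Klf15. Bcat2 had a positive one. Any link of Klf15 to these genes was not tested.

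**Figure D5:**
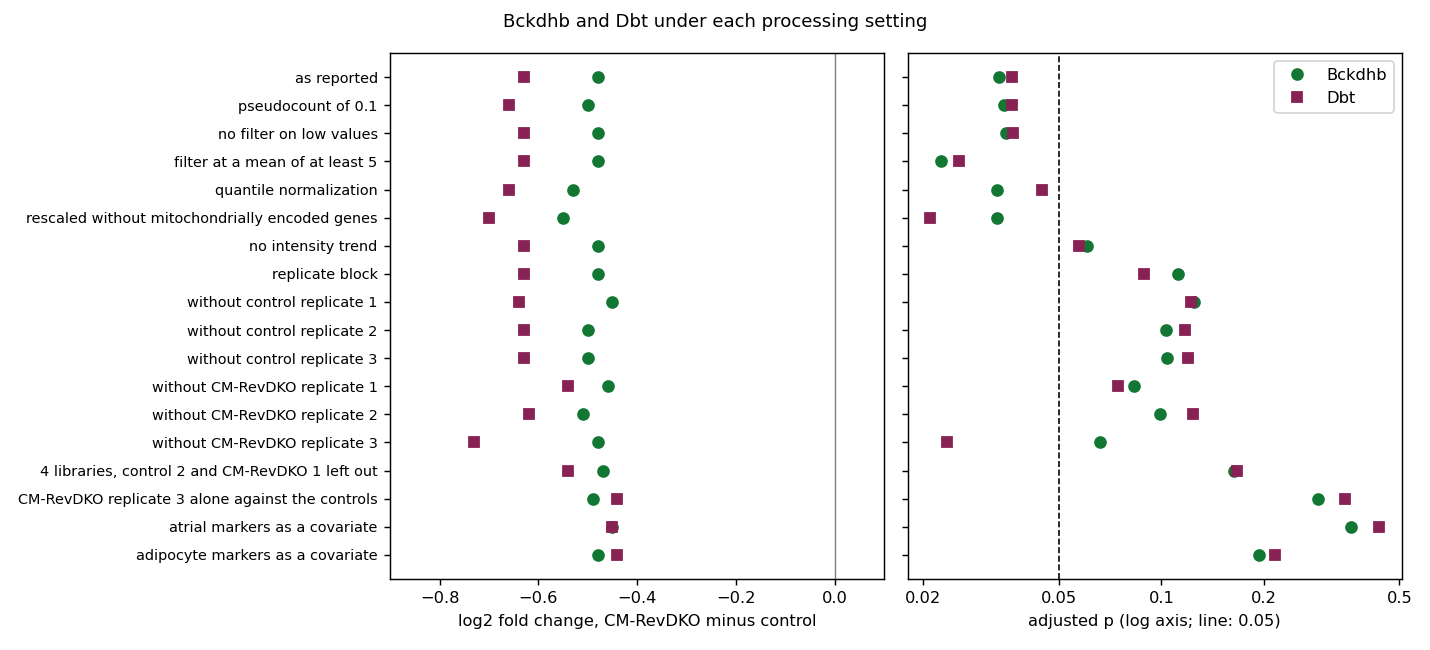
Log2 fold change (left, CM-RevDKO minus control) and adjusted p (right, log axis, dashed line at 0.05) of Bckdhb (circles) and Dbt (squares) as reported and under 17 other settings. The log2 fold change stays at or below -0.44 in every setting, while the adjusted p is above 0.05 for Bckdhb in 12 and for Dbt in 11 of the 17.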

How the data were processed

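RNA of 6 mouse heart libraries was analysed; the other 24 samples, of ChIP and Cut&Run, were not used here. The deposited table gives a value for each gene in each library, taken here as FPKM. The submitters' processing notes name HISAT2, StringTie and mm10; the sources used here give no versions, annotation or strand setting. The header does not name the unit, which was inferred from the sums per library and from StringTie. TPM would differ from FPKM by a factor per library, which would move the log2 fold changes. Whole reads could not be recovered: in none of 15 library pairs did more than 4 low genes have the same log2 ratio at 4 decimals. The 13256 of 13575 genes whose mean reached 0.5 FPKM were fitted as log2(FPKM + 1) with limma 3.58.1 in R 4.3.3 (lmFit and trended eBayes, with no term but the group), with two-sided p-values adjusted by Benjamini-Hochberg over all of them. The pseudocount understates changes of low genes. For a simulation, changes were placed in genes with a mean log2(FPKM + 1) above 2, so lower genes were not covered. Noise was normal, with the SD of each gene in these libraries. On these simulated data the procedure recovered 20% of log2 changes of 0.5, 78.4% of those of 1 and 95.6% of those of 2. A gene that did not pass is therefore not shown to be unchanged. Same-numbered replicates did not deviate together, so no block was used. Members, gene lists and alternatives were chosen with earlier results of these data known. The rule for named genes took all members, pathway genes past the test, and up to 2 more per step with the highest mean; 1 gene of the wider pathway is counted in the totals but not reported here. Motifs and coordinates come from RefSeq tables of GRCm38.p6.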

Additional observations from a re-analysis of the deposited data

How the results depend on the processing

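The 2 member calls, both lower, held under another pseudocount (0.1), no filter, a filter at a mean of 5, quantile normalization and scaling without mitochondrially encoded genes. The count of members was 0 without the intensity trend, with the replicate block, without control replicate 2 and CM-RevDKO replicate 1, with CM-RevDKO replicate 3 alone (chosen after seeing the data) and with atrial or adipocyte markers as a covariate, and 0 to 1 with each library left out. Over all genes the count was 115 with the block, 105 without those 2 libraries, 21 with CM-RevDKO replicate 3 alone, 38 and 69 with the atrial and adipocyte covariates, and 120 to 322 with each library left out. Fits with fewer libraries or more terms have fewer residual degrees of freedom. The summed atrial markers did not overlap between groups (85.0 to 140 FPKM in the controls, 192 to 708 FPKM in the others). The atrial covariate was a mean log2 level of 5 markers, of which Myl7, Myl4 and Sln did not overlap either. In the atrial fit the covariate and the group thus cannot be fully told apart, and the SE of Dbt was 0.15 instead of 0.11. Otherwise the cause was not tested. The members' median of -0.15 was -0.23 with quantile normalization, -0.22 scaled without mitochondrially encoded genes, -0.08 without those 2 libraries and -0.05 with the atrial covariate. The median over all genes, 0.02 as reported, was -0.01, -0.04, -0.0 and -0.03 in the same settings.

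The replicate numbers did not pair the libraries: deviations from the group means correlated at -0.037, -0.0642 and 0.0933 for numbers 1, 2 and 3, and CM-RevDKO replicates 1 and 2 correlated best with another number. With the block, Bckdhb and Dbt had adjusted p = 0.112 and 0.0889. The count of 0 wider pathway genes and the direction of the 5 ratios held under every alternative run for them.

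Genes that did not pass changed sign as follows. Bckdk ranged from -0.14 to 0.07 with each library left out (0.00 without control replicate 2), and was 0.15 with CM-RevDKO replicate 3 alone and 0.10 with the adipocyte covariate. Ppm1k was 0.06 with the atrial covariate. Ivd ranged from -0.12 to 0.03 with each library left out, and was 0.05 and 0.02 with the atrial and adipocyte covariates. Hibch was -0.00 under quantile normalization and under scaling without mitochondrially encoded genes. Pccb was -0.02 with CM-RevDKO replicate 3 alone, and -0.09 and -0.04 with the atrial and adipocyte covariates. With each library left out Lias ranged from -0.30 to 0.11, Lipt1 from -0.13 to 0.37 and Slc3a2 from -0.10 to 0.16. Without control replicate 2 and CM-RevDKO replicate 1 they were 0.06, -0.17 and -0.22. With the atrial covariate Lipt1 was -0.21 and Slc3a2 -0.35; Slc3a2 was -0.09 with the adipocyte covariate and -0.04 scaled without mitochondrially encoded genes. Depth is unknown, so the counting error of low genes such as Lipt1 could not be given.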

Other observations

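Leucine also signals through mTORC1, the kinase complex that drives protein synthesis, and 7 genes of leucine sensing and mTORC1 were set beside the breakdown enzymes. Sesn1, a sestrin, of a family that holds mTORC1 back when amino acids are short, was the 1 of 7 that passed the test, on the lower side: it stood at 47.0, 46.6 and 41.8 FPKM in control replicates 1, 2 and 3 and at 31.2, 33.8 and 30.4 FPKM in CM-RevDKO replicates 1, 2 and 3 (log2 -0.49, SE 0.09, adjusted p = 0.0417 by limma). All 3 libraries labelled CM-RevDKO were lower than every control, and the call was lost whichever library was dropped (adjusted p between 0.0823 and 0.146). Mtor, the kinase itself, and Rptor, its partner raptor, were also lower without overlap but did not pass (log2 -0.20 and -0.35, adjusted p = 0.386 and 0.157); over all genes 10.5% were lower and 12.6% higher without overlap. Ddit4, another inhibitor of mTORC1, stood at 45.3, 57.7 and 28.0 FPKM in the controls and at 141.5, 89.6 and 67.7 FPKM in CM-RevDKO replicates 1, 2 and 3. Its groups did not overlap, on the higher side, but it did not pass the test (log2 1.16, SE 0.32, adjusted p = 0.124). Mtor, Rptor and Ddit4 were named after their values were seen.

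Pyruvate dehydrogenase is built like BCKDH, and of 12 genes of the pyruvate and oxoglutarate dehydrogenases and their regulators none passed the test (median log2 fold change -0.02). The counterparts of the 2 called BCKDH genes were named after their values were seen. Pdhb, the E1 beta subunit of pyruvate dehydrogenase, stood at 329.7, 313.4 and 351.9 FPKM in the controls and at 480.7, 437.8 and 384.1 FPKM in CM-RevDKO replicates 1, 2 and 3 (log2 0.38, SE 0.11, adjusted p = 0.124). Dlat, its E2 core, stood at 85.7 and 84.7 FPKM (group means; log2 -0.01, adjusted p = 0.960). Whether these genes differ from Bckdhb and Dbt in their response was not tested.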
